A study of Mus musculus with 12 samples.

Results

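Macrophage and dendritic cell genes, 35 in all, were followed in renal cortex libraries of mice with diabetic nephropathy (kidney disease of diabetes) given sodium butyrate (DN+NaB), mice with diabetic nephropathy (DN) and normal control mice (NC). The 35 members were listed by name, as genes that mark these cells or work in them. The rule used no measured value, but members and gene lists were chosen with earlier results of these data known. All 35 were present among the 46095 gene symbols of the count table. After the filter on low counts 31 of them were among the 17530 genes tested, and Aif1, Timd4, Clec10a and Lyz1 were too low to test. There were 4 libraries in each group, and every library carried the labels C57BL/6 strain, renal cortex and an age of 12 weeks. Diabetic nephropathy was shared by the DN+NaB and DN groups, and sodium butyrate was named for DN+NaB libraries alone. How the mice were made diabetic, and how much butyrate they received, for how long and by which route, are not in the labels. Which animal a library came from was not labelled, and p-values therefore reflect only how these libraries varied, which may be technical. Total counts were 58394975 to 70674015 per library (median 63588713).

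Macrophages and dendritic cells are immune cells that reside in the kidney between tubules and vessels. Macrophages depend on the growth factor receptor Csf1r, engulf debris through surface receptors, and secrete the C1q subunits that start the classical complement pathway. Dendritic cells depend on the receptor Flt3 and present antigen to T cells. Monocytes enter from blood by way of chemokine receptors such as Ccr2, and in diabetic kidney disease macrophages are known to gather in the tissue. Butyrate is a fatty acid that gut bacteria release, and it inhibits histone deacetylases.

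The tissue label read renal cortex, whereas the extraction protocol named prefrontal cortex. The kidney genes Lrp2 (547305 to 852758 counts) and Umod (165229 to 481314 counts) were abundant in all 12 libraries, and the neuronal gene Snap25 had 0 counts (a count of 0 allows 3). DN replicate 4 stood apart for the myeloid genes before any comparison: it was the highest of the 4 DN libraries for 24 of the 31 tested members, against 32.7% of all tested genes. DN+NaB replicate 4 was the highest of its group for 20 members (21.1% of all tested genes), and NC replicate 1 for 19 (23.0%). Results over the members, and those of several single members, are therefore given with and without DN replicate 4.

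Butyrate-treated diabetic cortex held fewer transcripts of many of these genes than normal cortex. With a call at an adjusted p under 0.05 (edgeR's quasi-likelihood test, Benjamini-Hochberg adjustment over all tested genes), 15 of the 31 tested members fell in DN+NaB against NC, where 8.94% of all tested genes fell, and 1 member, Fcgr2b, rose, where 6.62% rose. The number of members that fell was 8 without DN+NaB replicate 2, where 5.82% of all tested genes fell, and 23 when only the libraries of these groups were fitted, where 12.9% fell. The members that fell were the pan-leukocyte gene Ptprc, the receptors Csf1r and Flt3, the macrophage genes Adgre1, Cd68 and Mrc1, the monocyte receptor Ccr2, the adaptor Tyrobp, all C1q chains (C1qa, C1qb and C1qc), and the dendritic cell genes Itgax, Cd209a, Xcr1 and Clec9a. The median log2 fold change was -0.89 over the tested members and -0.01 over all tested genes, and 28 members had values below 0. For 19 members all 4 DN+NaB libraries lay below all 4 NC libraries (13.9% of all tested genes), and for 1 member they lay above (14.0%). An unadjusted p under 0.05 was found for 22 members, against 30.1% of all tested genes. In bulk tissue, fewer cells of a type and less RNA per cell cannot be told apart.

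In DN against NC, 4 members fell, namely Csf1r, Flt3, Mrc1 and Cd209a, where 4.42% of all tested genes fell. None rose (3.82% of all tested genes), DESeq2 likewise called 0 members higher, and 1 member had a higher value at an unadjusted p under 0.05. The median log2 fold change was -0.32 over the tested members and 0.01 over all tested genes. The groups did not overlap for 6 members that were lower in DN (7.49% of all tested genes) and 1 that was higher (5.86%), and 12 members had an unadjusted p under 0.05 (21.9%). Without DN replicate 4 the number lower was 8, with Adgre1, Cd68, Itgam and Tyrobp added, where 5.92% of all genes tested in that fit were lower, the median was -0.63, and 28 members had values below 0, against 22 with it.

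No member was called between DN+NaB and DN, where 0.0228% of all tested genes were called, 0.0114% higher and 0.0114% lower. DESeq2 called 1 member higher, Fcgr2b, and 2 lower, Trem2 and Clec9a, where it called 1.47% of all tested genes. An unadjusted p under 0.05 was found for 15 members, against 9.85% of all tested genes, and the median log2 fold change was -0.54, against -0.02 over all tested genes. Only Cd68, Tyrobp and Clec9a had all 4 DN+NaB libraries below all 4 DN libraries (2.44% of all tested genes), and no member had them above (2.13%). These values leaned on DN replicate 4: without it the median was -0.17, 6 members had an unadjusted p under 0.05, against 7.46% of all tested genes, and again 0 were called. Below 0 were 21 members without it and 25 with it. The log2 fold change was then 0.04 for Itgam (-1.68 with it), -0.21 for Cd14 (-1.56), -0.38 for Lyz2 (-1.34), -1.13 for Ccr2 (-1.67) and -0.79 for Ptprc (-1.25). It was -0.39 for Cd68 (-0.65), -0.29 for Tyrobp (-0.58) and -0.17 for Mrc1 (-0.46), whereas Laptm5 moved from 1.05 to 1.46. By group means, DN+NaB was the lowest of the 3 groups for 24 of the 31 members, against 36.9% of all tested genes. Each pair of comparisons shares the libraries of a group, so the fold changes below are given side by side and were not correlated.

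**Figure D1:**
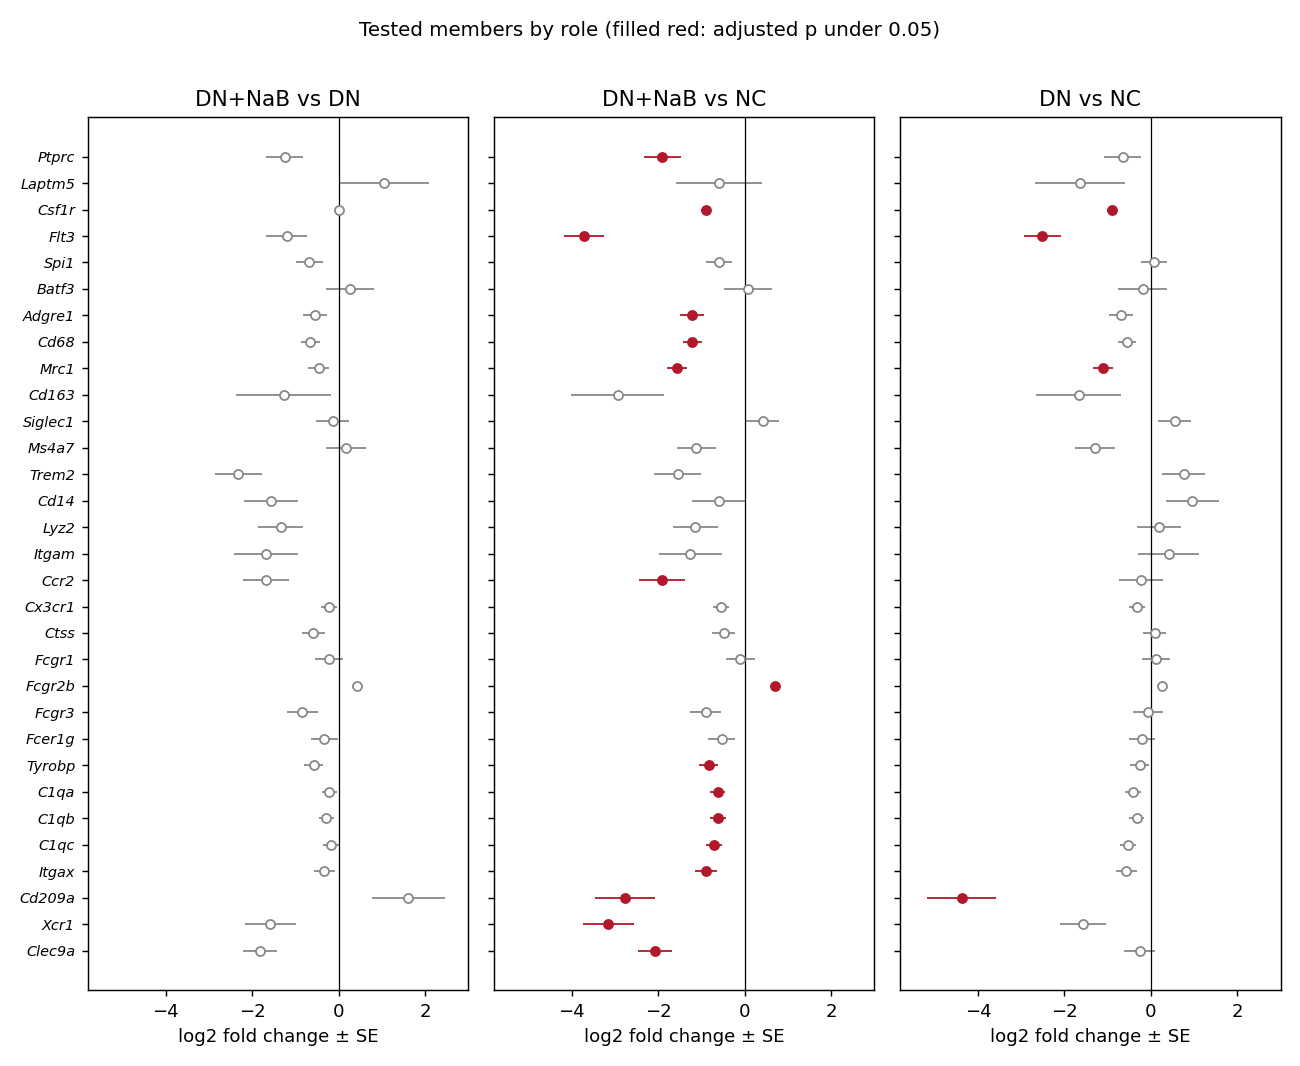
Log2 fold changes of the 31 tested members with their standard errors (horizontal axis) for DN+NaB against DN, DN+NaB against NC, and DN against NC; filled points passed an adjusted p of 0.05 in edgeR's quasi-likelihood test. No point is filled for DN+NaB against DN, 16 are filled for DN+NaB against NC and 4 for DN against NC.

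Among the growth factor receptors and transcription factors, both receptors fell and neither transcription factor did. Csf1r, the receptor for the macrophage growth factors Csf1 and Il34, had 59.7, 58.3, 64.2 and 56.6 CPM (counts relative to the library's scaled total) in DN+NaB, 51.0, 53.1, 59.3 and 73.4 CPM in DN, and 114, 113, 118 and 99.3 CPM in NC. Every DN+NaB and DN library lay below every NC library, while DN+NaB and DN libraries overlapped. The log2 fold change was -0.89 ± 0.12 (SE) for DN+NaB against NC (edgeR adjusted p = 2.08e-04), -0.91 ± 0.12 for DN against NC (2.66e-04) and 0.01 ± 0.12 for DN+NaB against DN (0.979).

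Flt3, the receptor for Flt3l that dendritic cells and their progenitors require, was scarce: it had 3, 9, 4 and 3 counts in DN+NaB, 10, 13, 6 and 15 counts in DN, and 76, 70, 52 and 79 counts in NC. No library of either diabetic group came near the NC range, and the diabetic groups overlapped at low counts. Between the groups, the log2 fold change was -3.71 ± 0.47 for DN+NaB against NC (edgeR adjusted p = 1.54e-04), -2.51 ± 0.43 for DN against NC (0.00218) and -1.20 ± 0.48 for DN+NaB against DN (0.438). Flt3 and Csf1r were called in both comparisons with NC whichever of the 12 libraries was left out.

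Spi1, which encodes the transcription factor PU.1 of the myeloid lineage, had 4.08, 3.01, 4.67 and 4.51 CPM in DN+NaB, 3.86, 4.45, 5.50 and 12.2 CPM in DN, and 7.19, 6.50, 5.51 and 5.48 CPM in NC. Its DN+NaB libraries lay below the NC libraries, but the log2 fold change of -0.60 ± 0.31 was not called (edgeR adjusted p = 0.206). Without DN replicate 4 the same contrast gave -0.61 and an adjusted p of 0.0292, with 0.0292 to 0.407 over all alternatives. It was also called when only the libraries of these groups were fitted. DN against NC gave 0.07 ± 0.30 with DN replicate 4 and -0.45 without it, neither called. Batf3, a transcription factor of cross-presenting dendritic cells, had 8 to 76 counts over the 12 libraries, and its groups overlapped in every comparison.

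**Figure D2:**
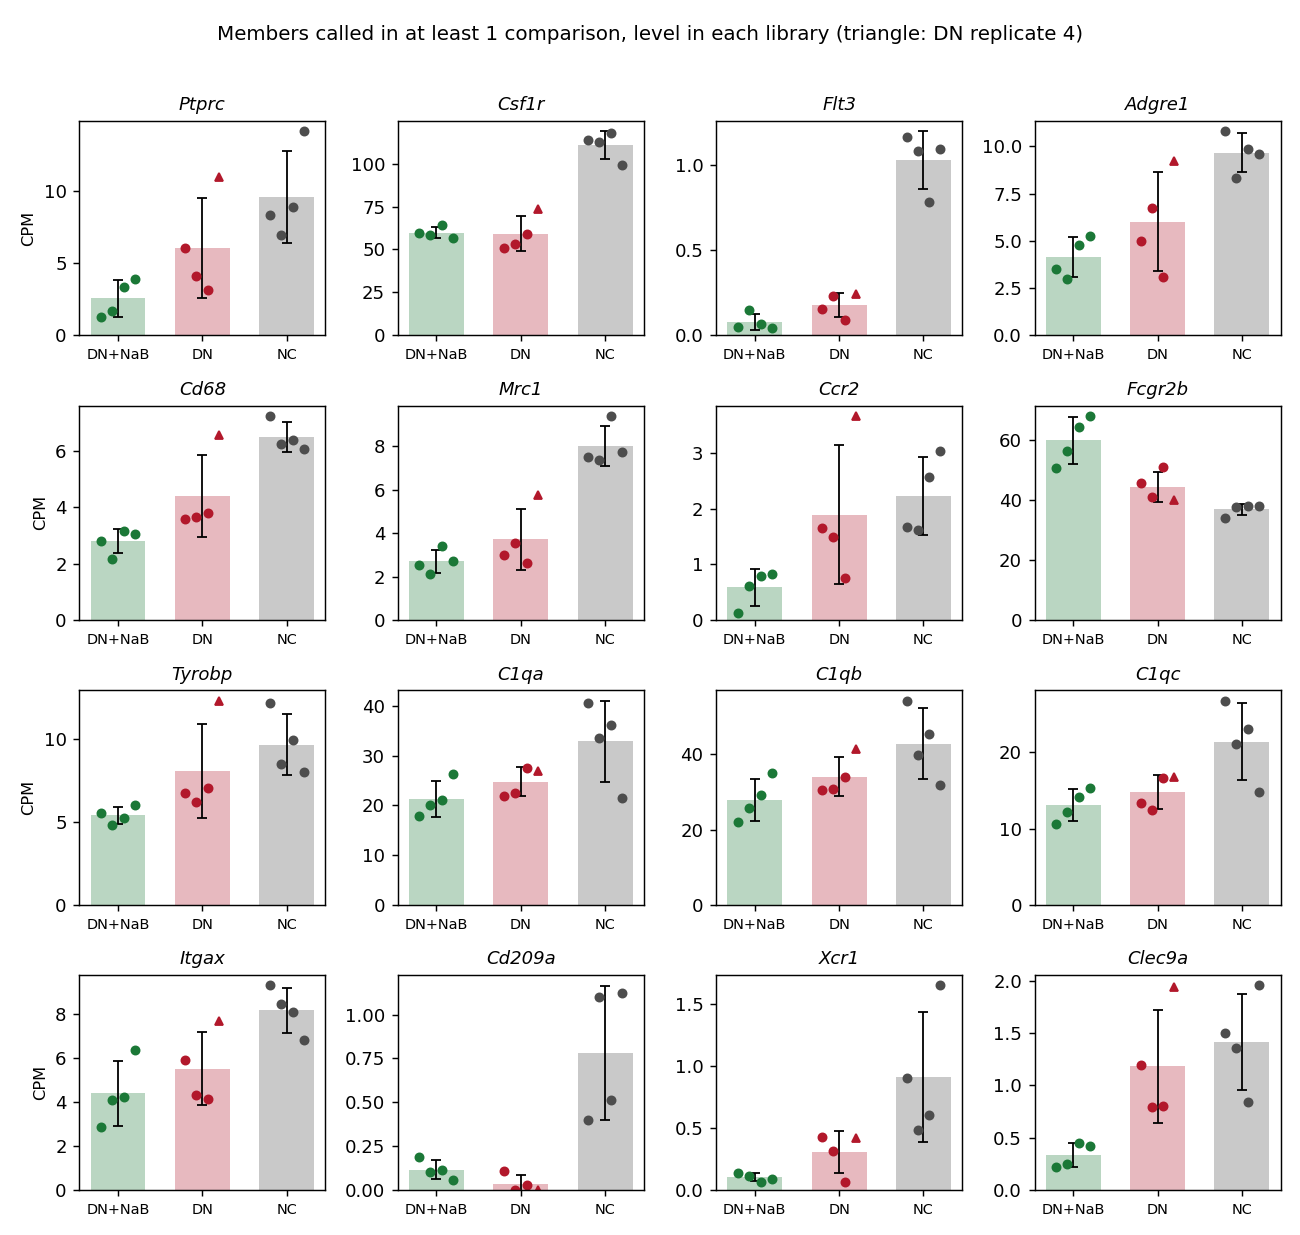
CPM of the 16 members called in any comparison, in DN+NaB, DN and NC; bars show group means, error bars the SD over 4 libraries, points the libraries, and triangles DN replicate 4. Csf1r, Flt3, Mrc1 and Cd209a are low in both diabetic groups, whereas Clec9a is low in DN+NaB and Fcgr2b is high there.

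Of the macrophage surface and scavenger genes, Adgre1, Cd68 and Mrc1 fell in DN+NaB against NC, and Mrc1 also fell in DN against NC. Mrc1, the mannose receptor, had 2.55, 2.12, 3.41 and 2.74 CPM in DN+NaB, 2.98, 3.54, 2.62 and 5.75 CPM in DN, and 7.53, 7.38, 9.41 and 7.77 CPM in NC. Both diabetic groups lay wholly below NC, with DN replicate 4 the closest to it. For Mrc1 the log2 fold change was -1.57 ± 0.24 for DN+NaB against NC (edgeR adjusted p = 6.88e-04), -1.11 ± 0.24 for DN against NC (0.0100) and -0.46 ± 0.24 for DN+NaB against DN (0.565).

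Cd68, a lysosomal glycoprotein of macrophages, had 2.81, 2.19, 3.16 and 3.07 CPM in DN+NaB, 3.59, 3.68, 3.80 and 6.57 CPM in DN, and 7.26, 6.25, 6.40 and 6.07 CPM in NC. The DN+NaB libraries lay below both other groups, and DN replicate 4 was the only DN library inside the NC range. The log2 fold change was -1.21 ± 0.21 for DN+NaB against NC (edgeR adjusted p = 0.00183), -0.65 ± 0.21 for DN+NaB against DN (0.325) and -0.56 ± 0.21 for DN against NC (0.131). Without DN replicate 4, DN against NC was called at -0.84 (adjusted p = 0.00747, with 0.00747 to 0.282 over all alternatives).

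Adgre1, the adhesion receptor that serves as the classic surface marker of tissue macrophages, had 3.51, 2.997, 4.81 and 5.25 CPM in DN+NaB, 4.98, 6.76, 3.10 and 9.25 CPM in DN, and 10.8, 8.31, 9.88 and 9.63 CPM in NC. Again DN+NaB lay wholly below NC, and DN replicate 4 reached into the NC range. Between the groups, the log2 fold change was -1.22 ± 0.28 for DN+NaB against NC (edgeR adjusted p = 0.00934), and -0.68 ± 0.28 for DN against NC (0.163), which was called without DN replicate 4 (-0.98, adjusted p = 0.0327, with 0.0327 to 0.320 over all alternatives).

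Trem2, a lipid-sensing receptor that signals through Tyrobp, followed another order, with 6, 7, 3 and 22 counts in DN+NaB, 60, 35, 19 and 70 counts in DN, and 34, 28, 30 and 25 counts in NC. Every DN+NaB library lay below every NC library, and DN+NaB replicate 4 alone reached the DN range. For Trem2 the log2 fold change was -2.32 ± 0.54 for DN+NaB against DN (edgeR adjusted p = 0.137; DESeq2 adjusted p = 0.00681; 0.00681 to 0.373 over all alternatives) and -1.55 ± 0.54 for DN+NaB against NC (edgeR adjusted p = 0.0675). The contrast with NC was called without DN+NaB replicate 4 (-2.27, adjusted p = 0.0184), without DN replicate 3 (-1.55, 0.0431) and under 3 other alternatives, DESeq2 among them, with adjusted p of 0.0184 to 0.158 over all alternatives.

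Cd163, the scavenger receptor for haemoglobin bound to haptoglobin, had 12, 2, 1 and 1 counts in DN+NaB, 12, 2, 0 and 26 counts in DN, and 24, 10, 79 and 25 counts in NC, and its groups overlapped in every comparison. Its log2 fold change for DN+NaB against NC was -2.93 ± 1.07 (edgeR adjusted p = 0.0822), and leaving out DN+NaB replicate 1 (-4.49, adjusted p = 0.0317) or DN replicate 3 (-2.93, 0.0437) ended in a call, with 0.0317 to 0.236 over all alternatives. DESeq2 and a fit of only the libraries of these groups called Cd163 as well. Ms4a7, a membrane protein of macrophages, ranged from 0.199 to 0.904 CPM in DN+NaB, 0.303 to 0.475 CPM in DN and 0.511 to 1.23 CPM in NC. It was called only without DN+NaB replicate 4, at -1.77 for DN+NaB against NC (adjusted p = 0.0158, against 0.110 with it, and 0.0158 to 0.254 over all alternatives) and -1.29 for DN against NC (0.049996, against 0.105 with it, and 0.049996 to 0.236 over all alternatives). Siglec1, a sialic acid-binding macrophage receptor, ranged from 5.33 to 10.1 CPM in DN+NaB, 4.31 to 16.8 CPM in DN and 4.47 to 7.12 CPM in NC, with no call.

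Itgam, Cd14 and Lyz2, of the monocyte and lysozyme genes, stood far above the rest of their group in DN replicate 4. Itgam, the alpha chain of the complement receptor integrin of monocytes, macrophages and neutrophils, had 95, 89, 111 and 202 counts in DN+NaB, 158, 79, 124 and 1196 counts in DN, and 413, 236, 309 and 299 counts in NC. Cd14, the lipopolysaccharide co-receptor, had 230, 202, 250 and 297 counts in DN+NaB, 242, 232, 379 and 2009 counts in DN, and 541, 425, 369 and 240 counts in NC. Lyz2, the lysozyme of macrophages and neutrophils, had 788, 608, 800 and 1199 counts in DN+NaB, 1050, 902, 1358 and 5171 counts in DN, and 2853, 1341, 2178 and 1567 counts in NC. In each case DN replicate 4 exceeded every other library of the study, and for Itgam and Lyz2 the DN+NaB libraries all lay below NC.

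DN replicate 4 had 10.1 times the mean CPM of the other DN libraries for Itgam, 7.15 times for Cd14, 5.64 times for Cd163 and 4.73 times for Lyz2. With this library, DN against NC gave log2 fold changes of 0.42 for Itgam, 0.96 for Cd14 and 0.20 for Lyz2, none of them called. Without it, the values were -1.31 for Itgam (edgeR adjusted p = 0.0131, with 0.0131 to 0.881 over all alternatives), -0.41 for Cd14 (0.346) and -0.78 for Lyz2 (0.0733). DN+NaB against NC gave -1.26 ± 0.72 for Itgam (0.272) and -1.14 ± 0.52 for Lyz2 (0.163). Both were called without DN replicate 4, Itgam at -1.27 (adjusted p = 0.00504, with 0.00504 to 0.437 over all alternatives) and Lyz2 at -1.16 (0.00466, with 0.00466 to 0.323). A fit of only the libraries of these groups called both as well.

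**Figure D3:**
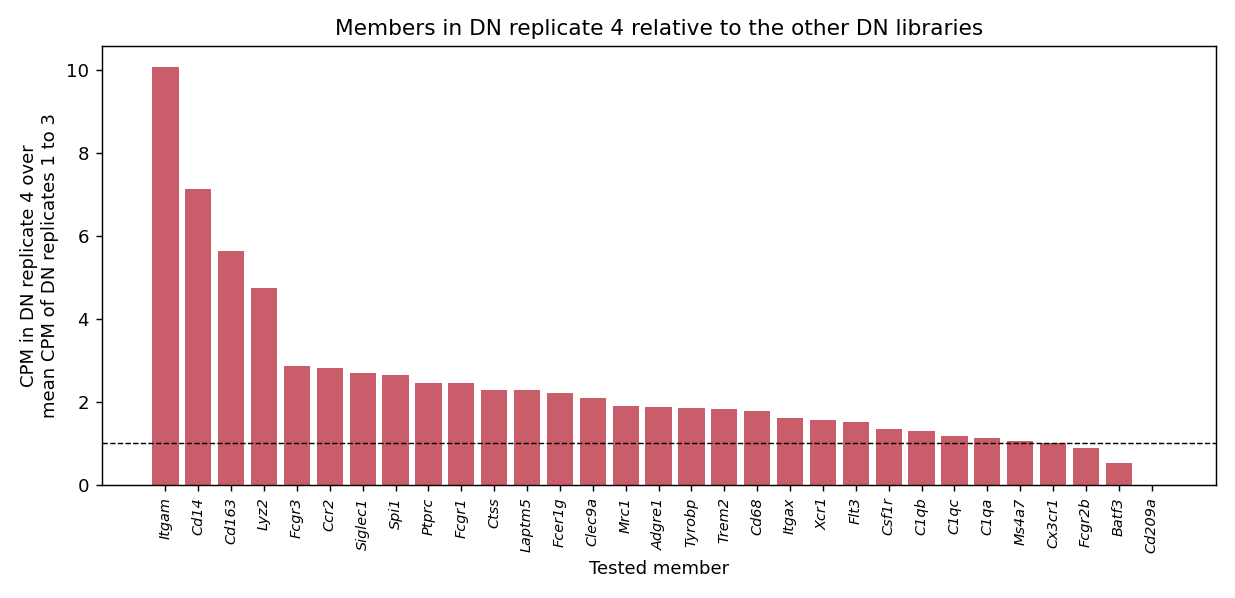
CPM in DN replicate 4 divided by the mean CPM of DN replicates 1 to 3 for each tested member (linear axis from 0, dashed line at 1). Itgam (10.1), Cd14 (7.15), Cd163 (5.64) and Lyz2 (4.73) stand above the rest, and Cd209a, with 0 counts in that library, is at 0.

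Reads of Itgam are uncertain, because 66.3% of its stretches of 50 bases are shared with the overlapping transcript gene Gm49368 in GENCODE M21, and Lyz2 shares 15.4% of its stretches with Lyz1. Neutrophil markers moved with these genes in DN replicate 4: the 10 listed markers summed to 31.0 CPM there, against 2.57 to 5.42 CPM in the other DN libraries, 1.14 to 5.84 CPM in DN+NaB and 3.14 to 5.09 CPM in NC. None of the 10 was at 0 in all libraries, and S100a8 had 229 counts and Csf3r 822 counts in DN replicate 4. Their part in the values of Itgam, Cd14 and Lyz2 was not tested.

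Ccr2, the receptor by which monocytes follow Ccl2 into tissue, fell in DN+NaB against NC. It had 7, 37, 48 and 58 counts in DN+NaB, 105, 85, 50 and 227 counts in DN, and 109, 104, 170 and 219 counts in NC. DN+NaB lay wholly below NC and overlapped DN through DN replicate 3. The log2 fold change was -1.91 ± 0.53 for DN+NaB against NC (edgeR adjusted p = 0.0274), -1.67 ± 0.53 for DN+NaB against DN (0.305) and -0.23 ± 0.51 for DN against NC (0.848). The call was lost without NC replicate 3 (adjusted p = 0.0669), NC replicate 4 (0.0777) or DN+NaB replicate 2 (0.0683), with 0.00203 to 0.0777 over all alternatives.

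Cx3cr1, the fractalkine receptor that resident kidney macrophages carry, had 5.72, 5.03, 8.06 and 7.45 CPM in DN+NaB, 6.10, 7.36, 9.54 and 7.70 CPM in DN, and 10.9, 8.23, 9.19 and 10.0 CPM in NC. Its DN+NaB libraries lay below the NC libraries, and the log2 fold change of -0.55 ± 0.18 just missed the threshold (edgeR adjusted p = 0.0603). It was called without DN replicate 3 (adjusted p = 0.0439), DN replicate 4 (0.0472) or DN+NaB replicate 3 (0.0478), and under 5 other alternatives, DESeq2 among them, with 0.0259 to 0.177 over all alternatives. Ctss, the lysosomal protease cathepsin S, ranged from 9.74 to 14.0 CPM in DN+NaB, 10.4 to 30.6 CPM in DN and 14.6 to 20.04 CPM in NC. Its log2 fold change for DN+NaB against NC was -0.49 ± 0.27 (0.237), and -0.50 without DN replicate 4 (adjusted p = 0.0448, with 0.0348 to 0.431 over all alternatives). A fit of only the libraries of these groups called Ctss as well.

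The Fc receptors and adaptors split by sign. Fcgr2b, the inhibitory receptor for IgG, was the only member that rose: it had 50.7, 56.4, 64.2 and 68.0 CPM in DN+NaB, 45.5, 40.9, 51.0 and 40.0 CPM in DN, and 34.1, 37.7, 37.9 and 37.9 CPM in NC. DN+NaB and DN each lay wholly above NC, and DN+NaB overlapped DN only between 50.7 and 51.0 CPM. Between the groups, the log2 fold change was 0.70 ± 0.12 for DN+NaB against NC (edgeR adjusted p = 0.00115), 0.27 ± 0.12 for DN against NC (0.195) and 0.43 ± 0.12 for DN+NaB against DN (0.199; DESeq2 adjusted p = 0.0471, with 0.0471 to 0.432 over all alternatives). It shares 4.38% of its stretches of 50 bases with other genes, Fcgr3 among them, and the strand setting of the counts is not given in the sources used here, so reads of an antisense transcript could not be told apart.

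Tyrobp, the adaptor that carries the signal of Trem2 and other activating receptors, had 5.55, 4.83, 5.23 and 6.04 CPM in DN+NaB, 6.72, 6.21, 7.05 and 12.3 CPM in DN, and 12.2, 8.51, 9.91 and 8.03 CPM in NC. The DN+NaB libraries lay below every DN and every NC library. For Tyrobp the log2 fold change was -0.83 ± 0.22 for DN+NaB against NC (edgeR adjusted p = 0.0183), lost without NC replicate 1 (0.0643) or DN+NaB replicate 2 (0.0594), with 0.00174 to 0.0643 over all alternatives. It was -0.58 ± 0.22 for DN+NaB against DN (0.406) and -0.26 ± 0.21 for DN against NC (0.540), and DN against NC was called without DN replicate 4 (-0.55, adjusted p = 0.0468, with 0.0468 to 0.830 over all alternatives).

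The activating receptor Fcgr3 had 5.96, 5.10, 4.61 and 5.99 CPM in DN+NaB, 7.68, 4.21, 7.96 and 18.9 CPM in DN, and 12.0, 11.0, 10.8 and 6.75 CPM in NC. DN+NaB lay wholly below NC, with a log2 fold change of -0.90 ± 0.35 (edgeR adjusted p = 0.104). That contrast was called without DN replicate 4 (adjusted p = 0.00991) and without DN replicate 2 (0.0463), with 0.00563 to 0.207 over all alternatives. DESeq2 and a fit of only the libraries of these groups called it as well. Fcgr3 shares 9.58% of its stretches of 50 bases with Fcgr2b. Fcer1g, the signalling chain shared by activating Fc receptors, had 2.38, 3.91, 3.11 and 4.85 CPM in DN+NaB, 3.67, 3.80, 2.83 and 7.60 CPM in DN, and 6.34, 4.98, 5.78 and 3.58 CPM in NC. Its groups overlapped in every comparison, as did those of Fcgr1, the high-affinity IgG receptor, which ranged from 2.64 to 4.42 CPM in DN+NaB, 2.07 to 6.73 CPM in DN and 2.15 to 4.35 CPM in NC. Neither was called.

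The C1q genes encode the A, B and C chains of the complement recognition protein, which kidney macrophages secrete, and per kilobase of merged exons C1qb (39.4 CPM per kb) and C1qa (31.6) were the highest members in NC, ahead of Lyz2 (22.6) and Csf1r (19.2). The sequences of 3 members' promoters are shown. These members fell in DN+NaB against NC, and their windows hold, in differing numbers, the core letters GAGGAA that PU.1 is known to bind. Other members that fell have windows without these letters, which are not shown. Each window runs from 250 bases before to 50 bases after the RefSeq gene start on GRCm38.p6, read 5′ to 3′ on the gene's strand, and capitals mark GAGGAA, or TTCCTC where it lies on the other strand, with the flanking base of GAGGAAG included where present. The windows are chr4:136886151-136886450 on the minus strand for C1qb, chr4:136892865-136893164 on the minus strand for C1qc, and chr2:14229164-14229463 on the plus strand for Mrc1.
C1qb: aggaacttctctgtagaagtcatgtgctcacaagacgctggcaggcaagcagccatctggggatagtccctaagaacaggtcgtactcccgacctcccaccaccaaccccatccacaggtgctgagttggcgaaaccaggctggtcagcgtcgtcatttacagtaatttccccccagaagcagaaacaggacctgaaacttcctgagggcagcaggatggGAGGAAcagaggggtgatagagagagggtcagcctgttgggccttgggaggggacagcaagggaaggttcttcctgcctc
C1qc: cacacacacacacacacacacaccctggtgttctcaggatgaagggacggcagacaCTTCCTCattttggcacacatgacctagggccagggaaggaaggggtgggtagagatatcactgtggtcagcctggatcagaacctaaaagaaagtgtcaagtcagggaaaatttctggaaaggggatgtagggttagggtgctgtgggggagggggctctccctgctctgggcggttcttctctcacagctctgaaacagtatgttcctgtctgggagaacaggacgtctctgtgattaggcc
Mrc1: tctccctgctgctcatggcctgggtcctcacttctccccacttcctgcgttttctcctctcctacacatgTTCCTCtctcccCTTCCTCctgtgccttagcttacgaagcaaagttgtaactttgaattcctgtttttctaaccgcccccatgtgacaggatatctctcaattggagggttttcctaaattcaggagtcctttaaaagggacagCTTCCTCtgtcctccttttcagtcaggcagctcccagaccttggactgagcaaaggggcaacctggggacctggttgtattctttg

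The letters GAGGAA, searched on both strands, were found once in the C1qb window, once in the C1qc window and 3 times in the Mrc1 window. RefSeq promoters were found for 27 of the 35 members, with 30 windows in all, some of which overlap because a gene has more than 1 start. GAGGAA was in 15 of the 30 windows, of 14 genes, against 28.3% of 32851 promoters of the same length, and GAGGAAG, which contains it, was in 10 windows of 9 genes, against 13.6%. The windows of Flt3, Ccr2, Cd209a, Xcr1, Clec9a, Itgax and Fcgr2b held neither, which says only that these letters are not in those windows. A match of letters is a description of the sequence and not evidence of binding.

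C1qa had 17.9, 20.2, 21.0 and 26.3 CPM in DN+NaB, 21.9, 22.5, 27.4 and 27.0 CPM in DN, and 40.5, 33.6, 36.1 and 21.5 CPM in NC. C1qb had 22.0, 25.7, 29.1 and 34.97 CPM in DN+NaB, 30.4, 30.7, 33.9 and 41.4 CPM in DN, and 54.3, 39.8, 45.4 and 32.0 CPM in NC. C1qc had 10.5, 12.2, 14.1 and 15.3 CPM in DN+NaB, 13.3, 12.5, 16.6 and 16.8 CPM in DN, and 26.7, 21.0, 23.0 and 14.7 CPM in NC. NC replicate 1 was the highest NC library for each chain, and NC replicate 4 was inside the range of the diabetic libraries for all of them, so no pair of groups was free of overlap.

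All chains fell in DN+NaB against NC, by log2 fold changes of -0.62 ± 0.18 for C1qa (edgeR adjusted p = 0.0300), -0.62 ± 0.18 for C1qb (0.0290) and -0.71 ± 0.18 for C1qc (0.0168). These calls were close to the threshold. C1qa was not called without any one of NC replicates 1 (adjusted p = 0.0966), 2 (0.0619) and 3 (0.0785) or DN+NaB replicates 1 (0.0830), 2 (0.0823) and 3 (0.0711), with 0.00399 to 0.0966 over all alternatives. C1qb was not called without NC replicate 1 (0.102), NC replicate 3 (0.0740), DN+NaB replicate 1 (0.0812), DN+NaB replicate 2 (0.0845) or DN+NaB replicate 3 (0.0581), with 0.0108 to 0.102 over all alternatives. C1qc was not called without NC replicate 1 (0.0603) or DN+NaB replicate 2 (0.0530), with 0.00293 to 0.0603 over all alternatives.

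For DN against NC the log2 fold change was -0.41 ± 0.18 for C1qa (edgeR adjusted p = 0.194), -0.33 ± 0.18 for C1qb (0.298) and -0.53 ± 0.18 for C1qc (0.0937). Without NC replicate 4, C1qa was called at -0.58 (adjusted p = 0.0307, with 0.0307 to 0.430 over all alternatives) and C1qc at -0.68 (0.0243, with 0.0243 to 0.257). Between DN+NaB and DN the values were -0.21 for C1qa, -0.29 for C1qb and -0.18 for C1qc, none called. DN replicate 4 had no large excess of these genes, and was the highest DN library for C1qb and C1qc but not for C1qa.

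All 4 members listed under dendritic cells fell in DN+NaB against NC, and Cd209a fell in DN against NC as well. Flt3 and Batf3, which also act in dendritic cells, were listed under another role. In DN+NaB against NC Flt3 fell, whereas Batf3 did not (0.08 ± 0.56, edgeR adjusted p = 0.945). Clec9a, the receptor by which cross-presenting dendritic cells recognise dead cells, had 13, 15, 27 and 29 counts in DN+NaB, 76, 45, 53 and 120 counts in DN, and 98, 88, 56 and 141 counts in NC. The DN+NaB libraries lay below every DN and every NC library, and DN overlapped NC. The log2 fold change was -2.08 ± 0.39 for DN+NaB against NC (edgeR adjusted p = 0.00260), -0.26 ± 0.36 for DN against NC (0.747) and -1.82 ± 0.39 for DN+NaB against DN. That direct contrast of the diabetic groups had an edgeR adjusted p of 0.0981 and a DESeq2 adjusted p of 0.00194, with 0.00194 to 0.278 over all alternatives, and without DN replicate 4 it was -1.47 (edgeR adjusted p = 0.182).

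Xcr1, the receptor for Xcl1 on the same dendritic cells, had 8, 7, 4 and 6 counts in DN+NaB, 27, 18, 4 and 26 counts in DN, and 59, 31, 40 and 119 counts in NC. Both diabetic groups lay wholly below NC, and DN replicate 3 was as low as DN+NaB. Between the groups, the log2 fold change was -3.15 ± 0.59 for DN+NaB against NC (edgeR adjusted p = 0.00261), -1.57 ± 0.54 for DN against NC (0.0919; DESeq2 adjusted p = 0.0496, with 0.0496 to 0.266 over all alternatives) and -1.58 ± 0.59 for DN+NaB against DN (0.406).

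Cd209a, a C-type lectin related to human DC-SIGN, had 11, 6, 7 and 4 counts in DN+NaB, 7, 0, 2 and 0 counts in DN, and 26, 71, 34 and 81 counts in NC. A count of 0 allows up to 3 in a library, and the DN+NaB and DN libraries overlapped. For Cd209a the log2 fold change was -4.38 ± 0.79 for DN against NC (edgeR adjusted p = 0.00333), which grew to -5.95 without DN replicate 1, and 1.62 ± 0.84 for DN+NaB against DN (0.564). For DN+NaB against NC it was -2.76 ± 0.70 (0.0157), not called without DN+NaB replicate 2 (0.0513) or DN+NaB replicate 4 (0.0551), with 6.73e-04 to 0.0551 over all alternatives.

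Itgax, the integrin chain of dendritic cells and some macrophages, had 2.84, 4.11, 4.23 and 6.36 CPM in DN+NaB, 5.91, 4.33, 4.13 and 7.70 CPM in DN, and 9.29, 8.45, 8.07 and 6.81 CPM in NC. DN+NaB lay wholly below NC and overlapped DN. The log2 fold change was -0.89 ± 0.25 for DN+NaB against NC (edgeR adjusted p = 0.0263), -0.56 ± 0.25 for DN against NC (0.201) and -0.33 ± 0.25 for DN+NaB against DN (0.686). The call was lost without any one of NC replicates 1 (0.0786), 2 (0.0613) and 3 (0.0593) or DN+NaB replicates 1 (0.0665), 2 (0.0727) and 3 (0.0651), with 0.00519 to 0.0786 over all alternatives. Itgax shares 8.02% of its stretches of 50 bases with Itgad.

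Ptprc, the tyrosine phosphatase on the surface of all leukocytes, had 1.26, 1.66, 3.36 and 3.92 CPM in DN+NaB, 6.07, 4.12, 3.15 and 10.9 CPM in DN, and 8.33, 6.90, 8.84 and 14.1 CPM in NC. DN+NaB lay wholly below NC, and DN overlapped both. Between the groups, the log2 fold change was -1.90 ± 0.43 for DN+NaB against NC (edgeR adjusted p = 0.0103), -1.25 ± 0.43 for DN+NaB against DN (0.353) and -0.66 ± 0.42 for DN against NC (0.405). Laptm5, a lysosomal protein of blood cells, had 62, 44, 82 and 110 counts in DN+NaB, 21, 34, 24 and 61 counts in DN, and 18, 420, 14 and 11 counts in NC. NC replicate 2 set its sign: DN+NaB against NC was -0.59 ± 1.004 with this library (0.735) and 2.46 without it (adjusted p = 0.00581, with 0.00581 to 0.862 over all alternatives).

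The 4 members that could not be tested were at or near 0. Aif1, the calcium-binding protein known as a pan-macrophage marker, was at 0 in every library, and a count of 0 allows 3, although other macrophage genes were present in the same libraries. Timd4, a receptor for dying cells on resident macrophages, had 0 or 1 count per library. Lyz1, the lysozyme gene beside Lyz2, had 0 to 8 counts per library. Clec10a, a galactose-binding lectin, had 8, 2, 4 and 0 counts in DN+NaB, 0, 0, 2 and 0 counts in DN, and 0, 2, 2 and 0 counts in NC.

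Genes that work with the members were counted as well. For the counts of this and the lists below, 6.62% of all tested genes rose and 8.94% fell in DN+NaB against NC. In DN against NC 3.82% rose and 4.42% fell, and in DN+NaB against DN 0.0228% were called. Of the 14 tested partners and signalling genes of member receptors, 0 rose and 5 fell in DN+NaB against NC, and 0 were called in DN against NC or in DN+NaB against DN. Vav1, a guanine nucleotide exchange factor below these receptors, averaged 1.72 ± 0.165 CPM in DN+NaB, 2.80 ± 0.651 CPM in DN and 3.77 ± 0.624 CPM in NC (SD, n = 4 each), with a log2 fold change of -1.13 ± 0.21 for DN+NaB against NC (edgeR adjusted p = 0.00236). Itgb2, the beta chain that pairs with Itgam and Itgax, averaged 6.29 ± 0.833 CPM in DN+NaB, 11.3 ± 3.78 CPM in DN and 13.8 ± 3.10 CPM in NC, with -1.13 ± 0.22 (0.00330). The phosphatase gene Inpp5d (-0.77 ± 0.18, 0.0103), the adaptor gene Lcp2 (-1.76 ± 0.45, 0.0182) and the Fc receptor gene Fcgr4 (-1.002 ± 0.29, 0.0309) also fell in that contrast.

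Among the 8 tested ligands of member receptors, Apoe, a ligand of Trem2, rose in both diabetic groups against NC, and Flt3l, the ligand of Flt3, fell in DN+NaB. Apoe averaged 405 ± 97.2 CPM in DN+NaB, 454 ± 96.2 CPM in DN and 205 ± 35.9 CPM in NC, with log2 fold changes of 0.98 ± 0.19 for DN+NaB against NC (edgeR adjusted p = 0.00372) and 1.15 ± 0.19 for DN against NC (0.00214). Flt3l averaged 2.33 ± 0.357 CPM in DN+NaB, 3.09 ± 0.435 CPM in DN and 3.61 ± 0.612 CPM in NC, with -0.63 ± 0.20 for DN+NaB against NC (0.0414) and -0.22 ± 0.19 for DN against NC (0.563). Il34 averaged 5.98 ± 0.953 CPM in DN+NaB, 8.45 ± 3.61 CPM in DN and 8.51 ± 0.575 CPM in NC and was not called, nor was Xcl1. None of the ligands was called between DN+NaB and DN.

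Of the 13 other myeloid transcription factors, 2 rose and 5 fell in DN+NaB against NC, 0 rose and 3 fell in DN against NC, and 0 were called between DN+NaB and DN. Irf5, a factor of inflammatory macrophages, averaged 8.47 ± 1.12 CPM in DN+NaB, 9.90 ± 2.13 CPM in DN and 16.4 ± 1.499 CPM in NC, with log2 fold changes of -0.95 ± 0.17 for DN+NaB against NC (edgeR adjusted p = 0.00179) and -0.73 ± 0.17 for DN against NC (0.0152). Irf4, which acts in dendritic cells and lymphocytes, fell in the same 2 contrasts (-1.81 ± 0.33, 0.00224, and -1.56 ± 0.33, 0.00849). Maf moved the other way, with 259 ± 51.7 CPM in DN+NaB, 206 ± 19.4 CPM in DN and 157 ± 19.0 CPM in NC and a log2 fold change of 0.73 ± 0.14 for DN+NaB against NC (0.00360). Id2 also rose in that contrast (0.51 ± 0.14, 0.0201), and Zbtb46 (-0.64 ± 0.14, 0.00719) and Ikzf1 (-1.60 ± 0.32, 0.00411) fell.

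Of the 25 other macrophage and monocyte genes tested, 0 rose and 5 fell in DN+NaB against NC, and 0 were called between DN+NaB and DN. In DN against NC 1 rose and 1 fell, where 3.82% of all tested genes rose and 4.42% fell. Their median log2 fold change in that contrast was 0.19, against 0.01 over all tested genes and -0.32 over the tested members. Of the 25, 15 lay above 0 and 10 below, and 48.2% of all tested genes lay below 0. An unadjusted p under 0.05 was found for 5 higher and 2 lower genes, against 21.9% of all tested genes in either direction. The actin-binding leukocyte gene Coro1a averaged 5.77 ± 0.917 CPM in DN+NaB, 10.0 ± 1.76 CPM in DN and 12.2 ± 1.64 CPM in NC, with a log2 fold change of -1.08 ± 0.17 for DN+NaB against NC (edgeR adjusted p = 7.49e-04) and -0.80 ± 0.17 for DN+NaB against DN (0.0912). Cyth4 (-1.05 ± 0.17, 9.93e-04), Cd52 (-1.11 ± 0.23, 0.00519), Pld4 (-0.65 ± 0.17, 0.0215) and Mertk, a receptor for the uptake of dying cells (-0.34 ± 0.10, 0.0281), also fell in DN+NaB against NC. In DN against NC, Cyth4 fell (-0.61 ± 0.17, 0.0375) and Chil3, a chitinase-like protein of mouse macrophages and neutrophils, rose (3.13 ± 0.84, 0.0366), with 14, 23, 22 and 19 counts in DN+NaB, 38, 35, 23 and 327 counts in DN, and 2, 18, 16 and 16 counts in NC. DN replicate 4 was again the highest library, and without it the change of Chil3 was 1.40 ± 0.54 and not called (adjusted p = 0.118). Chil3 was called under 7 of 18 alternatives, applied to it after its values were seen, with adjusted p of 6.68e-04 to 0.118.

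Of the 10 other dendritic cell genes tested, 1 rose and 4 fell in DN+NaB against NC, 1 rose and 1 fell in DN against NC, and 0 were called between DN+NaB and DN. Wdfy4, which cross-presentation requires, averaged 3.71 ± 1.32 CPM in DN+NaB, 5.76 ± 0.942 CPM in DN and 19.0 ± 2.75 CPM in NC, with log2 fold changes of -2.35 ± 0.23 for DN+NaB against NC (edgeR adjusted p = 1.60e-05) and -1.72 ± 0.22 for DN against NC (2.53e-04). Sirpa, a surface receptor also made outside myeloid cells, rose in both, with 225 ± 19.6 CPM in DN+NaB, 202 ± 35.4 CPM in DN and 114 ± 11.7 CPM in NC, and log2 fold changes of 0.98 ± 0.13 (2.24e-04) and 0.83 ± 0.13 (0.00118). Cd8a (-2.38 ± 0.43, 0.00227), which T cells share, Fscn1 (-0.70 ± 0.19, 0.0224) and the migration receptor gene Ccr7 (-2.27 ± 0.69, 0.0394) fell in DN+NaB against NC.

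Markers of lymphocytes also fell in DN+NaB against NC. Of the 6 neutrophil markers tested, 0 were called in that contrast, and their median log2 fold change was 0.10. The 13 T and NK cell markers, with Cd2 and Trbc2 at 0 in all libraries, summed to 2.25 to 3.42 CPM in DN+NaB, 6.04 to 17.8 CPM in DN and 14.9 to 27.8 CPM in NC, and the DN+NaB range lay below both others. Of the 10 tested, 9 fell in DN+NaB against NC, 1 fell in DN+NaB against DN (Cd5, -3.31 ± 0.49, edgeR adjusted p = 0.0376) and 2 fell in DN against NC (Cd4, -1.65 ± 0.29, 0.00278, and Nkg7, -0.97 ± 0.27, 0.0433). The 7 B and plasma cell markers, none at 0 throughout, summed to 1.55 to 1.87 CPM in DN+NaB, 1.71 to 2.76 CPM in DN and 8.197 to 25.1 CPM in NC. Of the 3 tested, Jchain fell in both diabetic groups against NC (-5.43 ± 0.64, 1.53e-04, in DN+NaB and -5.45 ± 0.64, 2.11e-04, in DN), and Cd79b fell in DN+NaB (-1.55 ± 0.44, 0.0271). Their part in the values of genes that lymphocytes also express, such as Ptprc, Coro1a, Irf4 and Fcgr2b, was not tested.

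Among cells that are not leukocytes, the 8 endothelial markers summed to 683 to 781 CPM in DN+NaB, 615 to 741 CPM in DN and 690 to 831 CPM in NC, and the 7 proximal tubule markers to 27133 to 35961 CPM in DN+NaB, 20826 to 32901 CPM in DN and 24777 to 29146 CPM in NC. All 3 groups overlapped for both sums. Of the 7 proximal tubule markers, all tested, 1 rose and 1 fell in DN+NaB against NC, and 0 were called in the other comparisons. Of the endothelial markers, Cdh5 (-0.37, edgeR adjusted p = 0.0360) and Tek (-0.71, 0.00114) fell in DN+NaB against NC, and Cdh5 (-0.55, 0.00733) fell in DN against NC. The 6 markers of thick ascending limb and collecting duct summed to 5038 to 6475 CPM in DN+NaB, 5103 to 6659 CPM in DN and 6059 to 10855 CPM in NC. Of these, Umod (-0.87, 0.00931) and Slc12a1 (-0.96, 0.00680) fell in DN+NaB against NC, and Umod (-0.82, 0.0201) fell in DN against NC. The part of these cells in the members' values was not tested. The 6 erythroid markers summed to 87.6 to 203 CPM in DN+NaB, 74.9 to 297 CPM in DN and 99.2 to 187 CPM in NC, with DN replicate 4 the highest library at 297 CPM. The 5 adipocyte markers summed to 4.18 to 9.29 CPM in DN+NaB, 5.31 to 14.4 CPM in DN and 16.3 to 18.8 CPM in NC. Both diabetic groups lay wholly below NC for this sum, and of the 2 tested 1 fell in DN+NaB against NC. Mast cells are leukocytes, and their 5 markers, of which Mcpt4 was at 0 in all libraries, summed to 16.0 to 22.9 CPM in DN+NaB, 20.1 to 29.0 CPM in DN and 21.1 to 35.5 CPM in NC. Only 1 mast cell marker was tested, and it fell in DN+NaB against NC (-0.61). The part of adipocytes and mast cells in the members' values was not tested.

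**Figure D4:**
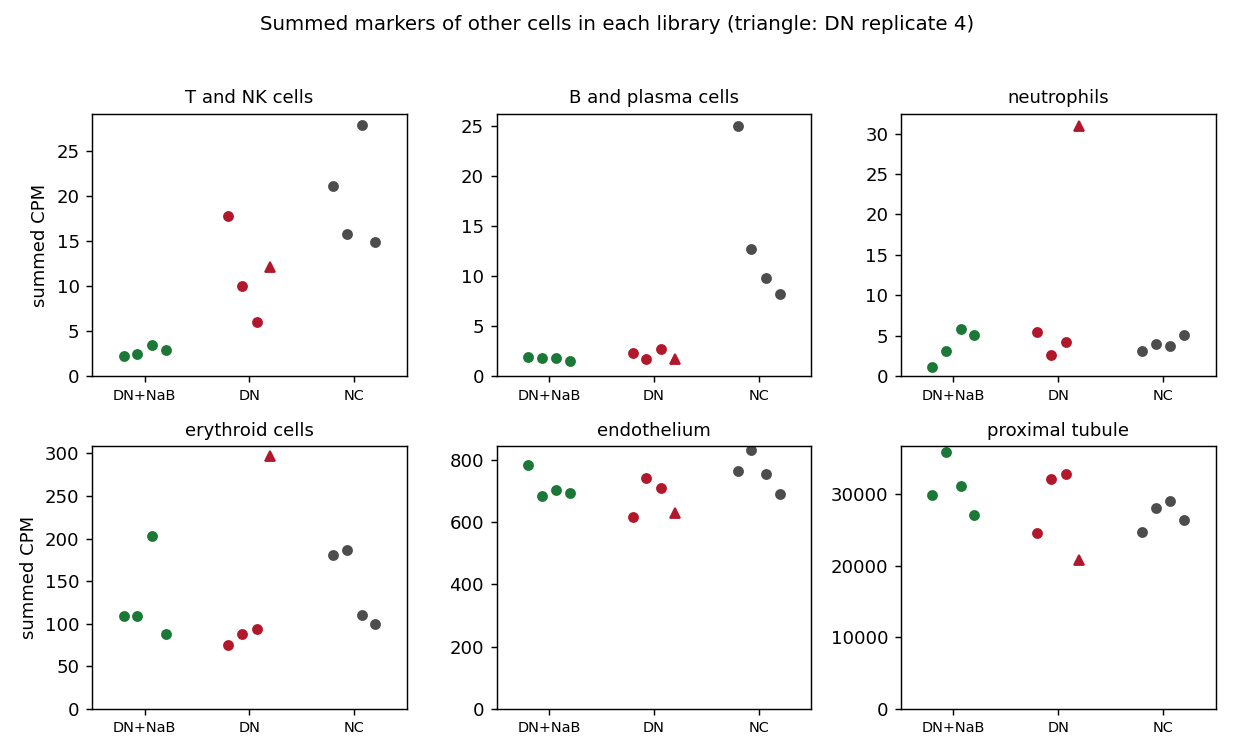
Summed CPM of markers of T and NK cells, B and plasma cells, neutrophils, erythroid cells, endothelium and proximal tubule in each library of DN+NaB, DN and NC (linear axes from 0; triangles mark DN replicate 4). T and NK cell markers lie between 2.25 and 3.42 CPM in DN+NaB, below every DN and NC library, and DN replicate 4 is the highest library for neutrophil (31.0 CPM) and erythroid (297 CPM) markers.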

How the data were processed

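RNA-seq was made from 12 renal cortex libraries, 4 per group. The authors deposited whole-number counts per gene symbol in 1 table, not normalized. Per the submitters' processing notes, HISAT2 2.0.4 was used. The build, the annotation, the counter and its strand setting were not given in the sources used here, and copies, overlapping and antisense genes are uncertain. Column names matched the sample titles.

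The count filter of edgeR 4.0.16 (filterByExpr by group; R 4.3.3) left 17530 genes, holding at least 99.95% of each library's counts. All 12 libraries, scaled by TMM, entered 1 quasi-likelihood fit with group as the term; tests were two-sided, and calls needed an adjusted p (Benjamini-Hochberg) under 0.05. CPM values use the TMM-scaled library sizes. SD is over 4 libraries. Alternatives were DESeq2 1.42.0, other scaling, filters and samples, a replicate block, and leaving out each library. Counting precision is high for most genes; members with few counts are given as counts. No libraries of a group agreed within sampling noise (smallest chi-square per degree of freedom 23.6).

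Members and gene lists were chosen with earlier results of these data known. Values are given for members called in any comparison, up to 4 members of each role and 4 genes of each further list with the smallest unadjusted p, and members with an outlying library; genes that checked the tissue, single lymphocyte and neutrophil genes, and further list genes named to complete a count were chosen after their values were seen. Alternatives were run for members and for counts over all genes, not for the further lists, except Chil3, to which they were applied after its values were seen. Per-kilobase levels and shared 50-base stretches used GENCODE M21, and promoters a RefSeq table of GRCm38.p6. No protein sequence was used here. Values of 1 transcription factor that the naming rule picks are not reported here.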

Additional observations from a re-analysis of the deposited data

Results flagged for a closer look

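In 8 cases the highest or lowest library of a group stood apart from the other 3 by Dixon's criterion at 95%, which flags about 1 in 20 groups by chance. DN replicate 4 was the high library in 5 of them, with 32.4 CPM for Cd14 (3.79 to 5.74 CPM in the other DN libraries), 83.5 CPM for Lyz2 (15.9 to 20.6), 19.3 CPM for Itgam (1.39 to 2.48), 12.3 CPM for Tyrobp (6.21 to 7.05) and 6.57 CPM for Cd68 (3.59 to 3.80). The same criterion picked out 6.38% of all tested genes in DN, 2.499% with replicate 4 as the high library, against 5 of the 31 members. In DN+NaB it picked out 5.43% of all tested genes and 1 member, Cd163, at 0.204 CPM in replicate 1 (0.0144 to 0.0331 in the others). In NC it picked out 8.47% of all tested genes and 2 members: Laptm5 at 6.50 CPM in replicate 2 (0.153 to 0.276 in the others) and Fcgr2b at 34.1 CPM in replicate 1 (37.7 to 37.9 in the others).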

How the results depend on the processing

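With 1 library left out, the number of genes called in DN+NaB against NC was 790 to 1570 higher and 1043 to 2146 lower, and of members 1 to 2 higher (Laptm5 added without NC replicate 2) and 8 (without DN+NaB replicate 2) to 21 (without DN replicate 4) lower. In DN against NC it was 409 to 921 genes higher, 533 to 1055 lower and 4 to 8 members lower (8 without DN replicate 4), and in DN+NaB against DN 0 to 30 genes higher and 0 to 37 lower (both most without DN replicate 3), with 0 members. Ptprc, Csf1r, Flt3, Adgre1, Cd68, Mrc1, Fcgr2b, Xcr1 and Clec9a in DN+NaB against NC, and Csf1r, Flt3, Mrc1 and Cd209a in DN against NC, were called in 12 of 12 such fits. Among uncalled members, the log2 fold change changed sign for these, given as lowest to highest. In DN+NaB against DN: Batf3 -0.038 to 1.16, Csf1r -0.053 to 0.14, Fcer1g -0.51 to 0.059, Fcgr1 -0.42 to 0.23, Itgam -2.01 to 0.037, Ms4a7 -0.48 to 0.41, Siglec1 -0.36 to 0.38. In DN+NaB against NC: Batf3 -0.21 to 0.34, Fcgr1 -0.29 to 0.026, Laptm5 -0.99 to 2.46. In DN against NC: Batf3 -1.08 to 0.12, Ccr2 -0.79 to 0.032, Cd14 -0.41 to 1.25, Ctss -0.33 to 0.28, Fcgr1 -0.34 to 0.32, Fcgr3 -0.63 to 0.19, Itgam -1.31 to 0.75, Laptm5 -2.06 to 1.41, Lyz2 -0.78 to 0.44, Spi1 -0.45 to 0.26.

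In DN+NaB against DN, 2 genes were called higher and 2 lower; the counts were 8 and 14 with RLE size factors, 8 and 18 with library size only, 9 and 18 with no filter, 7 and 10 with at least 1 CPM in 4 libraries, 0 and 0 with only the groups compared, and 84 and 173 with DESeq2, which called 1 member higher and 2 lower. DESeq2 called 1031 genes higher in DN against NC, against 669, and a fit of only the groups compared called 1783 genes higher and 23 members lower in DN+NaB against NC, against 1161 and 15. At least 1 CPM in 4 libraries left 2 members lower in DN against NC, since Flt3 and Cd209a were then not tested. With library size only, the median over all genes was -0.12 in DN+NaB against NC and -0.08 in DN against NC, and Csf1r gave -0.013 in DN+NaB against DN (-0.000454 with at least 1 CPM in 4 libraries) and Batf3 -0.034 in DN+NaB against NC. Library size only called 875 genes higher and 2070 lower in DN+NaB against NC, against 1161 and 1568, and 503 higher and 1103 lower in DN against NC, against 669 and 774. The cause of these changes was not tested.

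Whether replicate numbers pair the libraries is not labelled, and the correlations do not settle it. Of 12 same-numbered pairs, 6 had a correlation over 0.1, within -0.25 to 0.27, and differently numbered pairs reached -0.29 and 0.32. Replicate 4 gave 0.20 for NC with DN, 0.22 for NC with DN+NaB and 0.27 for DN with DN+NaB. With a replicate block, 4 genes were higher in DN+NaB against DN, in DN+NaB against NC C1qa was not called (adjusted p = 0.0552) while Trem2 (-1.81, 0.0359) and Cx3cr1 (-0.57, 0.0424) were, and uncalled members changed sign: Spi1 -0.056, Lyz2 -0.12, Itgam -0.40 and Ctss -0.00228 in DN against NC, Ms4a7 -0.034 in DN+NaB against DN, and Laptm5 0.88 in DN+NaB against NC. Genes with few counts, such as Flt3, Xcr1, Cd209a, Trem2 and Cd163, are imprecise. So are Laptm5, Itgam and Cd14, each with an outlying library, whose SE in DN+NaB against NC was 1.004, 0.72 and 0.62.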
